A study of Danio rerio with 4 samples.

Results

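The 10 zebrafish genes described here encode apolipoproteins: apoa1a, apoa1b, apoa2, apoa4b.1, apoba, apobb.1, apoc1, apoc2, apoea and apoeb. They were chosen by name from a table of 32058 rows, of which 22295 held counts, and each name stands for the Ensembl identifier with the most counts. RNA-seq was performed on livers of 6 dpf zebrafish of the AB genotype that had received no exogenous food. From 4 dpf, larvae were kept for 48 h in vehicle (DMSO) or in 5 μM lipofermata, an inhibitor of the fatty acid transport protein SLC27A2, so the comparison asks how hepatic transcripts of fasting larvae differ with this compound. Inhibition of the transporter and other effects of the compound cannot be told apart in this design. There were 2 libraries per group, each made from the pooled livers of 30 larvae. The labels do not say whether the libraries of a group came from separate clutches, so p-values measure only the spread between these libraries, which may be technical.

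Apolipoproteins are the protein part of the particles that carry lipid through the blood. Apolipoprotein B is built into very low density lipoprotein (VLDL) inside the hepatocyte and stays with the particle until it is taken up, whereas the small apolipoproteins A, C and E move between particles in plasma and set which lipases and receptors act on them. The liver is the main source of VLDL in vertebrates, and in zebrafish larvae the yolk syncytial layer and the intestine also make lipoproteins. Several mammalian apolipoprotein genes have 2 copies in zebrafish, marked a and b.

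The libraries held 19368695 and 14997821 counts with vehicle and 17326660 and 16104812 with lipofermata. All 22 hepatocyte markers found in the table had counts in these libraries, and their summed level was 67930 and 79248 CPM with vehicle and 53064 and 56470 CPM with lipofermata (CPM, the counts relative to library size after the TMM scaling of edgeR). A row for EGFP had counts in every library (817 and 710 CPM with vehicle, 494 and 322 CPM with lipofermata), although the labels give only AB as the genotype. Elsewhere in the study EGFP is the reporter of a hepatocyte line and of a macrophage line. Which line these larvae carried is not stated. Transcripts of the mitochondrial genome took 13.0% and 11.4% of counts with vehicle and 8.50% and 7.73% with lipofermata. The TMM factors, which multiply the library size, were 0.932 and 0.8175 for the vehicle libraries and 1.16 and 1.13 for the lipofermata libraries. Counts are divided by the scaled size. Relative to total counts, TMM therefore raised the vehicle levels and lowered the lipofermata levels. With total counts as the only scaling, the median log2 fold change of all genes moved up by 0.39, so changes below are relative to the scaling named. The lower CPM of the hepatocyte markers with lipofermata is likewise relative to the TMM scaling. As a part of total counts, their sum was similar in both groups. Whether the number of hepatocytes or the RNA per hepatocyte differed cannot be told from these bulk samples.

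At baseline, the 10 genes together took 7.16% of the counts of vehicle 1 and 7.98% of vehicle 2. With lipofermata they took 6.22% and 6.07%, so that their mean share was 7.57% ± 0.581 with vehicle and 6.15% ± 0.107 with lipofermata (SD, n = 2 each). Both lipofermata libraries lay below both vehicle libraries, by 1.42 percentage points between the means. The difference was 1.93 points when mitochondrial transcripts were left out of the total. These shares rest on counts and were not divided by transcript length, so they give how much of each library a gene took and not how many transcripts it had.

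Among the members, apoa1b alone made up 4.21% and 4.91% of the counts of the vehicle libraries, where it ranked 2 of all genes, and 3.73% and 3.57% with lipofermata, where it ranked 1. The next was apoa2 with 1.46% and 1.44% with vehicle (ranks 8 and 7) and 1.23% and 1.11% with lipofermata (rank 5 in both). After it came apobb.1 with 0.863% and 1.05% with vehicle (ranks 14 and 12) and 0.517% and 0.632% with lipofermata (ranks 23 and 17). The order below these was apoc1 at 0.317% and 0.255%, apoba at 0.166% and 0.194%, apoa4b.1 at 0.0689% and 0.0728%, apoc2 at 0.0435% and 0.0351%, apoa1a at 0.0170% and 0.0159%, and apoeb at 0.00944% and 0.00342%, each given for vehicle 1 and vehicle 2. This order by counts was the same in both vehicle libraries, and no pair of neighbours in it overlapped between them. With lipofermata, apoeb lay above apoa1a in both libraries (0.0377% and 0.0321% against 0.0217% and 0.0200%), and apoc2 lay above apoa4b.1 (0.0568% and 0.0617% against 0.0521% and 0.0513%). Counting error was small beside these values: the 95% Clopper-Pearson interval of the apoa1b share ran from 4.20% to 4.22% in vehicle 1. Intervals of this kind include no more than counting error, because PCR copies are not separate molecules.

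**Figure D1:**
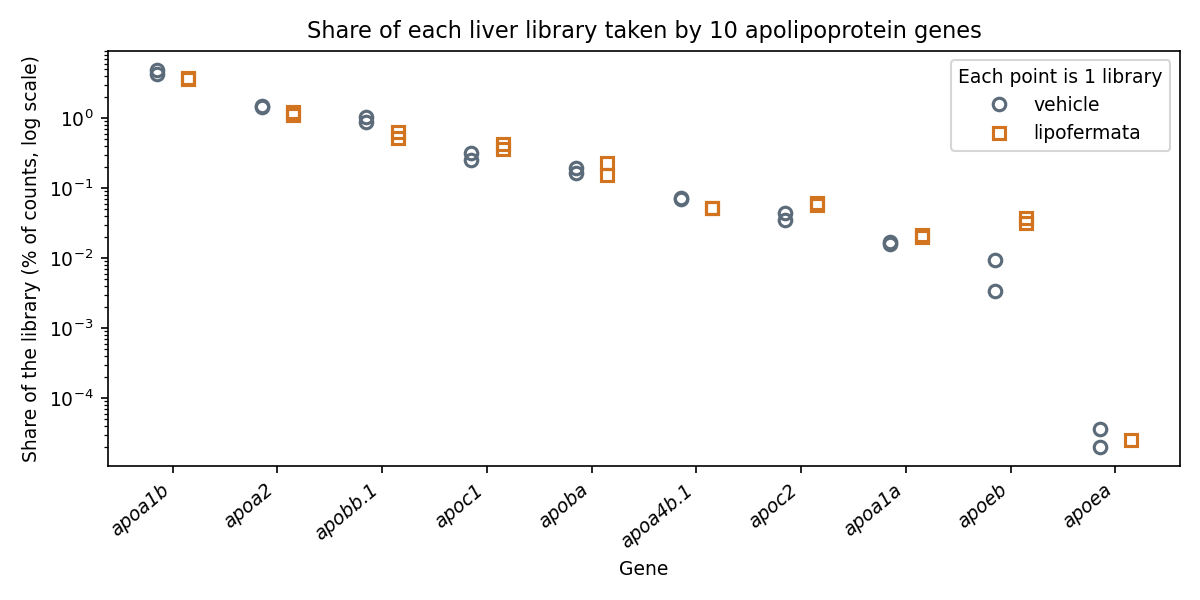
The share of each library taken by each of the 10 apolipoprotein genes (% of counts, log scale), with 1 point per library and a different marker for vehicle and lipofermata; lipofermata 1 has no point for apoea, with 0 counts. apoa1b, apoa2 and apobb.1 lead in all 4 libraries, and the lipofermata points of apoeb (0.0377% and 0.0321%) stand above its vehicle points (0.00944% and 0.00342%).

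**Figure D2:**
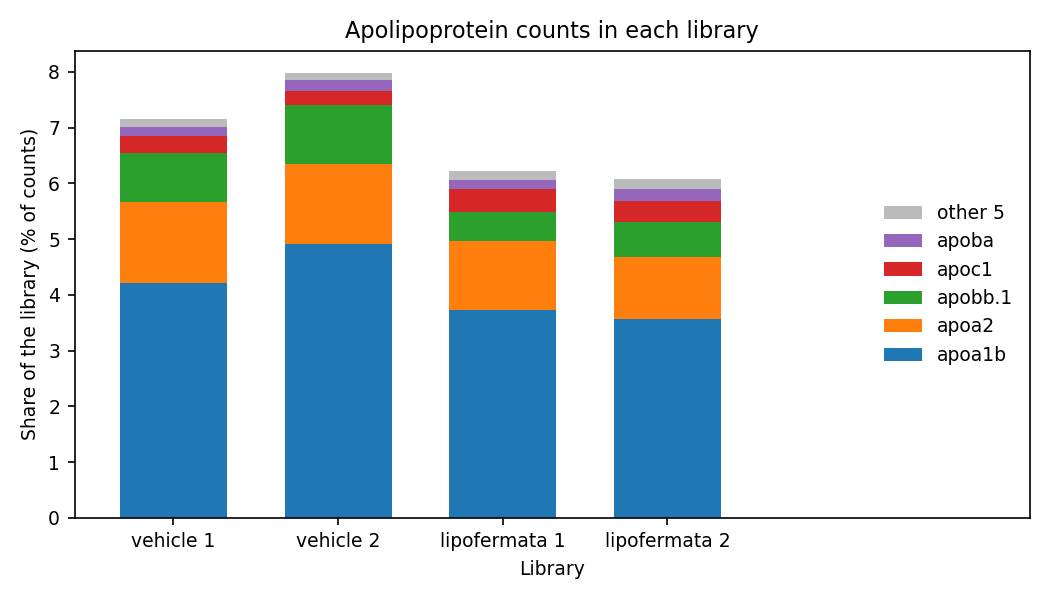
Stacked bars of the apolipoprotein share of each library (% of counts), with the 5 genes of most counts in colour and the other 5 in grey. The bars end at 7.16% and 7.98% for the vehicle libraries and at 6.22% and 6.07% for the lipofermata libraries, and apoa1b is the tallest segment of each.

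Of the 10 genes, 9 had enough counts to be tested. Lipofermata-treated livers had lower levels of 4 of them (apobb.1, apoa4b.1, apoa1b and apoa2), a higher level of 1 (apoeb), and 4 did not pass the test (apoa1a, apoba, apoc1 and apoc2), by edgeR's quasi-likelihood test at a Benjamini-Hochberg adjusted p under 0.1 over 14925 genes. Among all genes tested, 16.9% were lower and 16.6% higher (33.5% in either direction), against 44.4% and 11.1% of the tested members. The groups did not overlap for 4 tested members that were lower and 2 that were higher with lipofermata, beside 32.9% and 32.3% of all genes tested. On the log2 scale, the 9 tested members had a median fold change of -0.32 and all genes tested one of -0.03. With total counts as the only scaling, 4 members were lower and 4 higher, because apoa1a, apoc1 and apoc2 then passed as higher. Over all genes 7.92% were then lower and 34.1% higher. The log2 fold changes of the 4 lower members were then smaller, at -0.74 for apobb.1, -0.46 for apoa4b.1, -0.32 for apoa1b and -0.31 for apoa2. Without lipofermata 1, and likewise without lipofermata 2, only 2 members were lower.

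The structural apolipoproteins of VLDL are apoba and apobb.1, copies of the gene for apolipoprotein B, on which each particle is assembled. The level of apobb.1 was 9262 and 12827 CPM with vehicle and 4468 and 5571 CPM with lipofermata. Every lipofermata library was below every vehicle library, and the mean went from 11045 ± 2521 to 5019 ± 780 CPM (SD, n = 2 each). This was the largest fall among the tested members, at 0.454 of the vehicle level (log2 fold change -1.14, SE 0.20, edgeR adjusted p = 0.0032), and it passed the test in each of 15 alternative fits. These fits reused the same 4 libraries, and some estimated a smaller error than the main fit. A call kept in all of them, here and below, is therefore not separate support. The level of apoba was 1785 and 2376 CPM with vehicle and 1326 and 2001 CPM with lipofermata. The groups overlapped, since lipofermata 2 lay above vehicle 1, and the difference did not pass the test (log2 fold change -0.32, SE 0.22, edgeR adjusted p = 0.31). It passed without vehicle 1 (log2 fold change -0.51, edgeR adjusted p = 0.0020) and in a fit with the replicate number as a block (-0.34, edgeR adjusted p = 0.072). Its sign followed the scaling, at 0.08 with total counts only (edgeR adjusted p = 0.77).

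A ratio of copies within a library does not depend on how libraries are scaled. There were 5.19 and 5.40 counts of apobb.1 for each count of apoba with vehicle, and 3.37 and 2.78 with lipofermata, a log2 difference of -0.79 with no overlap between groups. An exact two-sided permutation test of 2 libraries against 2 cannot give a p under 0.333, and this exact permutation p of 0.333 was obtained here, also when adjusted over the 3 pairs of copies compared. A further copy, apobb.2, was low and varied more than the other copies (5.87 and 16.0 CPM with vehicle, 8.29 and 11.2 CPM with lipofermata). Its direction depended on 1 library: the log2 fold change was -0.14 with all libraries, -0.71 without vehicle 1 and 0.73 without vehicle 2.

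The apolipoproteins of high density lipoprotein (HDL) are represented by apoa1a, apoa1b and apoa2. Apolipoprotein A-I is the main protein of HDL and activates lecithin cholesterol acyltransferase, and apolipoprotein A-II is the next most abundant HDL protein in mammals. The level of apoa1b was 45122 and 60074 CPM with vehicle and 32269 and 31468 CPM with lipofermata. Both lipofermata libraries were below both vehicle libraries, which differed from each other far more than the lipofermata libraries did (52598 ± 10573 against 31868 ± 566 CPM, SD, n = 2 each). The level with lipofermata was 0.606 of that with vehicle (log2 fold change -0.72, SE 0.20, edgeR adjusted p = 0.022). The level of apoa2 was 15710 and 17654 CPM with vehicle and 10668 and 9771 CPM with lipofermata, again without overlap, and fell to 0.613 of the vehicle level (log2 fold change -0.71, SE 0.17, edgeR adjusted p = 0.013). Leaving out lipofermata 1 or lipofermata 2 ended both calls while the log2 fold changes stayed close, at -0.74 and -0.70 for apoa1b (edgeR adjusted p = 0.29 and 0.33) and -0.77 and -0.64 for apoa2 (edgeR adjusted p = 0.21 and 0.31).

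The other copy of the apolipoprotein A-I gene, apoa1a, was at 182 and 195 CPM with vehicle and at 187 and 176 CPM with lipofermata. These values overlapped, and the log2 fold change was -0.05 (SE 0.14, edgeR adjusted p = 0.82). The sign depended on the scaling: with total counts only it was 0.34 (edgeR adjusted p = 0.092). There were 248 and 309 counts of apoa1b per count of apoa1a with vehicle, and 172 and 179 with lipofermata, a log2 difference of -0.66 within libraries (exact permutation p = 0.333, the smallest possible with 2 against 2).

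Apolipoprotein A-IV, which mammals make mainly in the intestine and which is found on chylomicrons and HDL, is represented by apoa4b.1. Its level was 739 and 890 CPM with vehicle and 450 and 452 CPM with lipofermata. The lipofermata libraries were nearly equal and both below vehicle (815 ± 107 against 451 ± 0.880 CPM, SD, n = 2 each). The fall to 0.554 of the vehicle level passed the test (log2 fold change -0.85, SE 0.16, edgeR adjusted p = 0.0037) and did so in all 15 alternative fits. The nearby copy apoa4b.2 had 117 and 158 CPM with vehicle and 79.1 and 75.9 CPM with lipofermata. It too was lower (log2 fold change -0.83, SE 0.17, edgeR adjusted p = 0.0057). The copy apoa4b.3 was much lower at 5.32 and 7.26 CPM with vehicle and 4.89 and 3.78 CPM with lipofermata, and did not pass (log2 fold change -0.53, edgeR adjusted p = 0.22). How reads shared by these copies were counted is not given in the sources used here, so the division of counts among them is uncertain. Of 14 intestinal markers found, fabp6 and mep1b were at 0 in every library, and the summed level was 102 and 112 CPM with vehicle and 111 and 105 CPM with lipofermata. This sum held opposite moves, since of 7 tested 2 were lower and 1 higher (16.9% and 16.6% of all genes tested), at a median of -0.48 on the log2 scale. Among them, anxa2b went from 23.3 and 26.9 CPM to 8.19 and 8.21 CPM and cdh17 from 37.1 and 42.0 CPM to 63.4 and 55.4 CPM. The part of intestinal cells in the apoa4b values was not tested.

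Apolipoproteins C are small proteins that control the use of the particle's triglyceride. In mammals, apolipoprotein C-I inhibits receptor-mediated uptake and apolipoprotein C-II is the cofactor that lipoprotein lipase needs. The level of apoc1 was 3398 and 3116 CPM with vehicle and 3621 and 3227 CPM with lipofermata. The groups overlapped and no change was called (log2 fold change 0.07, SE 0.16, edgeR adjusted p = 0.78). The level of apoc2 was 466 and 429 CPM with vehicle and 491 and 544 CPM with lipofermata. Here the groups did not overlap, which held for 65.2% of all genes tested in one direction or the other, and the difference did not pass (log2 fold change 0.21, SE 0.15, edgeR adjusted p = 0.34).

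Both C genes depended on the scaling. With total counts only, apoc1 was higher by 0.46 and apoc2 by 0.59 on the log2 scale (edgeR adjusted p = 0.026 and 0.014), and with mitochondrial transcripts left out of the total the values were 0.39 and 0.53 (edgeR adjusted p = 0.051 and 0.027). Within the apolipoprotein counts themselves, the part of apoc1 was 4.43% and 3.19% with vehicle and 6.73% and 6.03% with lipofermata, and the part of apoc2 was 0.607% and 0.440% with vehicle and 0.912% and 1.02% with lipofermata. The part of apobb.1 was 12.1% and 13.1% with vehicle and 8.30% and 10.4% with lipofermata, whereas the parts of apoa1b (58.8% and 61.5% with vehicle, 60.0% and 58.8% with lipofermata) and apoa2 (20.5% and 18.1% with vehicle, 19.8% and 18.3% with lipofermata) overlapped between groups.

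Apolipoprotein E is the ligand by which remnant particles bind receptors of the LDL receptor family, and in mammals hepatocytes and macrophages are its main sources. The level of apoeb was 101 and 41.8 CPM with vehicle and 326 and 283 CPM with lipofermata. Both lipofermata libraries were far above both vehicle libraries, and the vehicle libraries differed from each other by 2.42 times. The mean rose from 71.5 ± 42.0 to 305 ± 30.8 CPM (SD, n = 2 each), or 4.26-fold (log2 fold change 2.08, SE 0.32, edgeR adjusted p = 0.0014). The size depended on the vehicle libraries, at 1.59 without vehicle 2 and 2.87 without vehicle 1 on the log2 scale, while the call was kept in all 15 alternative fits.

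Macrophage markers differed between the vehicle libraries in the same direction as apoeb. The summed level of 22 macrophage markers was 181 CPM in vehicle 1 and 55.8 CPM in vehicle 2, a ratio of 3.24, and 63.7 and 70.7 CPM with lipofermata. Both lipofermata libraries thus lay below vehicle 1 and above vehicle 2. Of the 17 tested, 8 were lower with lipofermata, 0 higher and 9 did not pass, beside 16.9% lower and 16.6% higher among all genes tested. The marker cd74a, with only 16 and 2 counts with vehicle, was at 0 in both lipofermata libraries. In the other direction, ctss2.2 went from 3.93 and 3.34 CPM with vehicle to 7.19 and 4.98 CPM with lipofermata. The part of these cells in the apoeb values was not tested. The other copy, apoea, had 7 and 3 counts with vehicle and 0 and 4 with lipofermata, too few for a test. It made up 0.382% (95% Clopper-Pearson interval 0.154% to 0.784%) and 0.581% (0.120% to 1.69%) of the apolipoprotein E counts with vehicle, 0 of 6537 in lipofermata 1, which allows up to 0.0564%, and 0.0773% (0.0211% to 0.198%) in lipofermata 2.

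**Figure D3:**
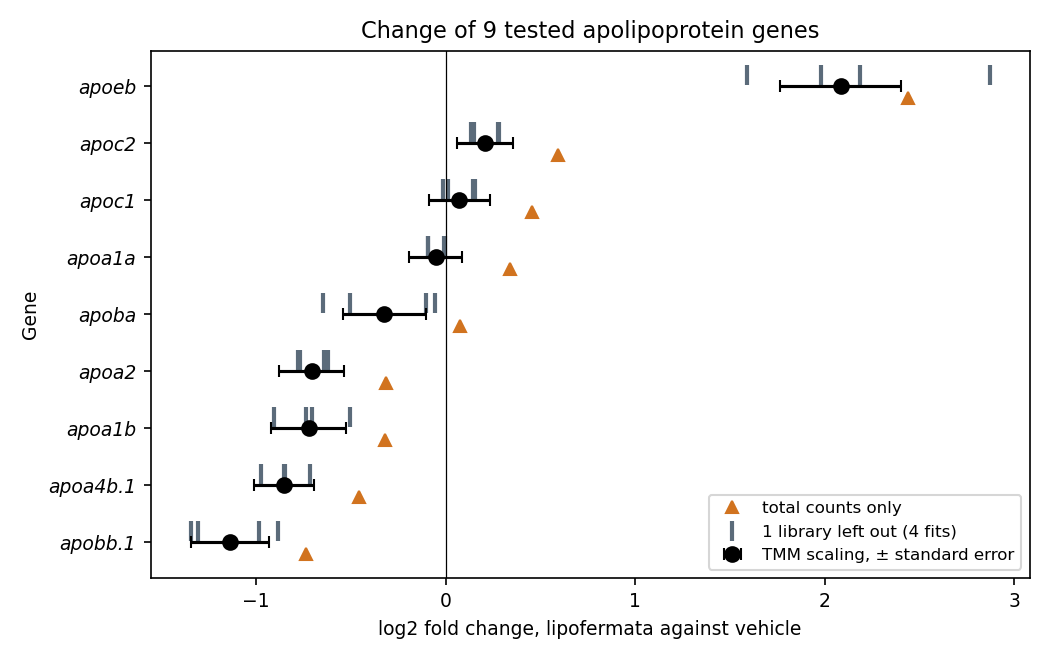
log2 fold change of the 9 tested apolipoprotein genes, lipofermata against vehicle (circles, ± standard error, TMM scaling), with the value under total counts only (triangles) and the 4 fits that each left out 1 library (ticks). apobb.1 (-1.14), apoa4b.1 (-0.85), apoa1b (-0.72) and apoa2 (-0.71) lie left of 0 and apoeb (2.08) right of it under every setting drawn, while apoa1a and apoba change side with total counts only. apoc1 (0.07) changes side without lipofermata 1 (-0.01).

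Several members are neighbours in the genome, by the gene order of the RefSeq annotation of GRCz12tu, which is not the build used for the counts. In that order, 11 genes run from apoa4b.1 to apoc2, of which 10 are protein-coding and 8 are apolipoprotein genes, 5 of them members: apoa4b.1, apoeb, apoc1, apoa2 and apoc2. The direction of change differed between neighbours. apoa4b.1, apoa4b.2 and apoa2 were lower (log2 fold changes -0.85, -0.83 and -0.71), apoeb between them was higher (2.08), and apoc1, apoc4 and apoc2 did not pass (0.07, 0.56 and 0.21). apoc4 itself was at 2.55 and 2.53 CPM with vehicle and 4.39 and 3.06 CPM with lipofermata (edgeR adjusted p = 0.29).

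**Figure D4:**
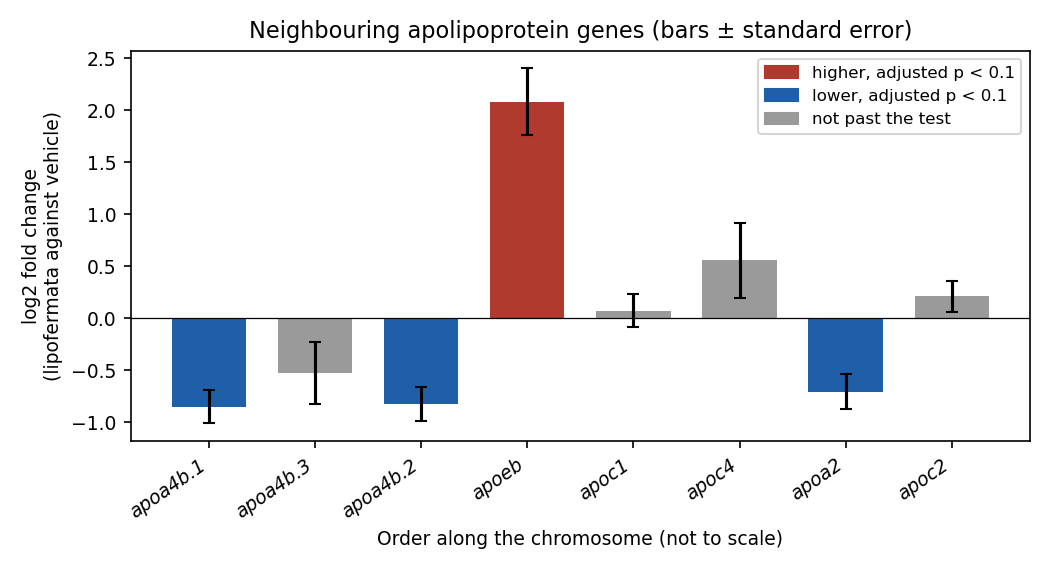
log2 fold change (bars, ± standard error) of the 8 apolipoprotein genes among the 11 genes from apoa4b.1 to apoc2. They stand in their order along the chromosome, not to scale, and the other genes between them are left out. The bar of apoeb (2.08) rises between the apoa4b copies, of which apoa4b.3 did not pass the test, and apoc1 (0.07). apoa2 (-0.71) is lower beside apoc2 (0.21).

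For each tested member, the gene with the closest profile was found by the Euclidean distance between log2 CPM over the 4 libraries, a measure that uses the level as well as its changes. The closest were ndufv1 to apoa1a (distance 0.114), aqp9b to apoa4b.1 (0.132), gnmt to apoc2 (0.169), cyp24a1 to apoc1 (0.333), rbp4 to apobb.1 (0.354), c3b.2 to apoba (0.374), ucp1 to apoa2 (0.559), si:ch211-79k12.1 to apoeb (0.561) and mt-co1 to apoa1b (0.593). The level of rbp4, the plasma carrier of retinol, was 9588 and 10559 CPM with vehicle and 4837 and 4933 CPM with lipofermata, beside the values of apobb.1 given above. The level of si:ch211-79k12.1 was 86.5 and 57.4 CPM with vehicle and 286 and 311 CPM with lipofermata. These genes were picked by these same values, so their likeness to the members is not a separate result.

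Of 13 other apolipoprotein genes found, 11 were tested, and 1 was lower (apoa4b.2, above) and 0 higher, at a median of -0.31 on the log2 scale. The level of apom, whose product carries sphingosine-1-phosphate on HDL in mammals, was 1025 and 1244 CPM with vehicle and 930 and 785 CPM with lipofermata, without overlap, and just missed the threshold (log2 fold change -0.40, SE 0.17, edgeR adjusted p = 0.11). The level of apoda.2 was 172 and 389 CPM with vehicle and 315 and 138 CPM with lipofermata. It was high in the same libraries as the exocrine pancreas markers, whose sum was 4984 and 11169 CPM with vehicle and 12687 and 5779 CPM with lipofermata, and the part of such cells in its level was not tested. Its log2 fold change was -0.31 with all libraries, -1.02 without lipofermata 1 and 0.40 without vehicle 2. The remaining genes were low or did not pass: apol1 (log2 fold change -0.42), apof (-0.56), apol (0.68), clu (0.40) and apoa4a (0.91, with 6 and 4 counts against 12 and 12). apoa4a had enough counts for the test only through the lipofermata libraries, so its direction followed from the filter. apodb had too few counts for a test and apoda.1 had 0 counts.

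Of 18 tested genes that load lipid onto apolipoprotein B and bring the particle out of the cell, 4 were lower, 2 higher and 12 did not pass, beside 16.9% lower and 16.6% higher among all genes tested, at a median of -0.12 on the log2 scale. The level of dgat2, which makes triglyceride, was 171 and 280 CPM with vehicle and 63.5 and 84.9 CPM with lipofermata (log2 fold change -1.60, SE 0.23, edgeR adjusted p = 0.0010). Lower levels were also called for pla2g12b, needed in zebrafish for normal lipoprotein secretion (-0.59, edgeR adjusted p = 0.015), creb3l3b, one of the copies of a membrane-bound transcription factor gene (-0.61, 0.040) and cideb, a lipid droplet protein (-0.52, 0.089). The copy creb3l3l of that transcription factor gene did not pass (-0.32, edgeR adjusted p = 0.15). Higher levels were called for its copy creb3l3a (0.88, edgeR adjusted p = 0.037) and for surf4l, a copy of a cargo receptor gene of the secretory pathway (0.63, 0.025). Of these 6 calls only that of dgat2 was kept in all 15 alternative fits. Those of creb3l3a and surf4l were lost without lipofermata 1 and without lipofermata 2, as was that of pla2g12b, which was lost also with both total-count scalings. That of creb3l3b was lost without vehicle 2, lipofermata 1 or lipofermata 2, that of cideb without vehicle 1 or lipofermata 2, and both with total counts only. DESeq2 did not keep the call of cideb either. The level of mttp, the microsomal transfer protein that lipidates apolipoprotein B, was 299 and 296 CPM with vehicle and 336 and 405 CPM with lipofermata, a difference that did not pass (log2 fold change 0.32, edgeR adjusted p = 0.16) but passed with total counts only (0.70, edgeR adjusted p = 0.0074).

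Among 11 tested receptors and their partners, 3 were higher and 3 lower (16.6% and 16.9% of all genes tested), at a median of -0.46 on the log2 scale. The LDL receptor gene ldlra was at 439 and 512 CPM with vehicle and 328 and 361 CPM with lipofermata (-0.46, SE 0.15, edgeR adjusted p = 0.050), and the HDL receptor gene scarb1 was lower as well (-0.74, edgeR adjusted p = 0.014). Higher was lrpap1, the chaperone of this receptor family (22.9 and 14.5 CPM with vehicle, 33.6 and 33.8 CPM with lipofermata, 0.84, edgeR adjusted p = 0.013), and its call alone was kept in all 15 alternative fits. lrp8, 1 of the 3 higher, had enough counts for the test only through the lipofermata libraries, so its direction followed from the filter. The calls of lrp8 (2.49, with 2 and 2 counts against 18 and 12) and sort1a (-1.20) had edgeR adjusted p-values of 0.056 and 0.080. These calls were lost in 8 and 7 of the 15 alternative fits. That of sort1b (0.95, edgeR adjusted p = 0.035) was lost without lipofermata 2, as was that of scarb1, and that of ldlra was lost without either lipofermata library. With total counts only, those of ldlra, scarb1 and sort1a were lost. lrp1ab, a large endocytic receptor for apolipoprotein E, was at 181 and 180 CPM with vehicle and 171 and 197 CPM with lipofermata (0.03, edgeR adjusted p = 0.92).

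Of 18 plasma lipases, transfer proteins and HDL enzymes tested, 6 were higher and 6 lower, at a median of -0.41 on the log2 scale, where 16.6% and 16.9% of all genes tested were. Highest was pon1, an esterase that travels on HDL, at 13.6 and 11.6 CPM with vehicle and 81.8 and 80.7 CPM with lipofermata (2.68, SE 0.15, edgeR adjusted p = 8.3e-06). The phospholipid transfer protein gene pltp went from 193 and 115 CPM to 539 and 459 CPM (1.70, SE 0.23, edgeR adjusted p = 6.6e-04). The hepatic lipase gene lipca went from 107 and 109 CPM to 194 and 209 CPM (0.90, SE 0.14, edgeR adjusted p = 0.0016), and the endothelial lipase gene lipg was higher by 1.45 (edgeR adjusted p = 0.011; 1.01 without vehicle 1 and 2.00 without vehicle 2). Lower were angptl4, which encodes an inhibitor of lipoprotein lipase (13.7 and 9.79 CPM with vehicle, 4.69 and 3.94 CPM with lipofermata, -1.45, edgeR adjusted p = 0.0030), angptl5 (-1.75, edgeR adjusted p = 0.0053) and pon2 (-0.97, edgeR adjusted p = 0.0086). The lipoprotein lipase gene lpl was at 2131 and 2679 CPM with vehicle and 1525 and 1804 CPM with lipofermata (-0.53, edgeR adjusted p = 0.050). Of these, the calls of pon1, pltp, lipca, lipg, angptl4 and angptl5 were kept in all 15 alternative fits, and that of lpl was lost without either lipofermata library and also with total counts only. lcat, the enzyme that apolipoprotein A-I activates, and cetp did not pass (-0.10 and -0.34).

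Of 31 regulators of apolipoprotein genes, 8 were lower and 4 higher (16.9% and 16.6% of all genes tested), at a median of -0.01 on the log2 scale. The nuclear receptor gene hnf4a, which drives many hepatocyte genes including those of several apolipoproteins in mammals, was at 99.3 and 144 CPM with vehicle and 50.7 and 54.3 CPM with lipofermata. Both lipofermata libraries were below vehicle (-1.21, SE 0.18, edgeR adjusted p = 0.0013), in all 15 alternative fits. Lower were also foxa2 (-0.93, edgeR adjusted p = 0.014), rxrga (-0.81, 0.015) and hnf1ba (-0.65, 0.017). Higher were foxo1b (0.92, 0.083), ppargc1b (0.48, 0.043), cebpa (0.39, 0.064) and nr5a2 (0.38, 0.064). foxo1b had few counts, at 44 and 23 with vehicle and 91 and 68 with lipofermata. Its copy foxo1a had 3202 and 2177 counts with vehicle and 2082 and 2527 with lipofermata. foxo1a was called lower (-0.55, edgeR adjusted p = 0.033) and was not followed in the alternative fits. Without lipofermata 1 the calls of rxrga and of the 4 higher genes were lost, and without lipofermata 2 those of foxa2, hnf1ba and the 4 higher genes. That of foxo1b was lost also without vehicle 2, and that of ppargc1b without vehicle 1. DESeq2 did not keep the calls of cebpa and foxo1b. With total counts only those of foxa2, rxrga and hnf1ba were lost.

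**Figure D5:**
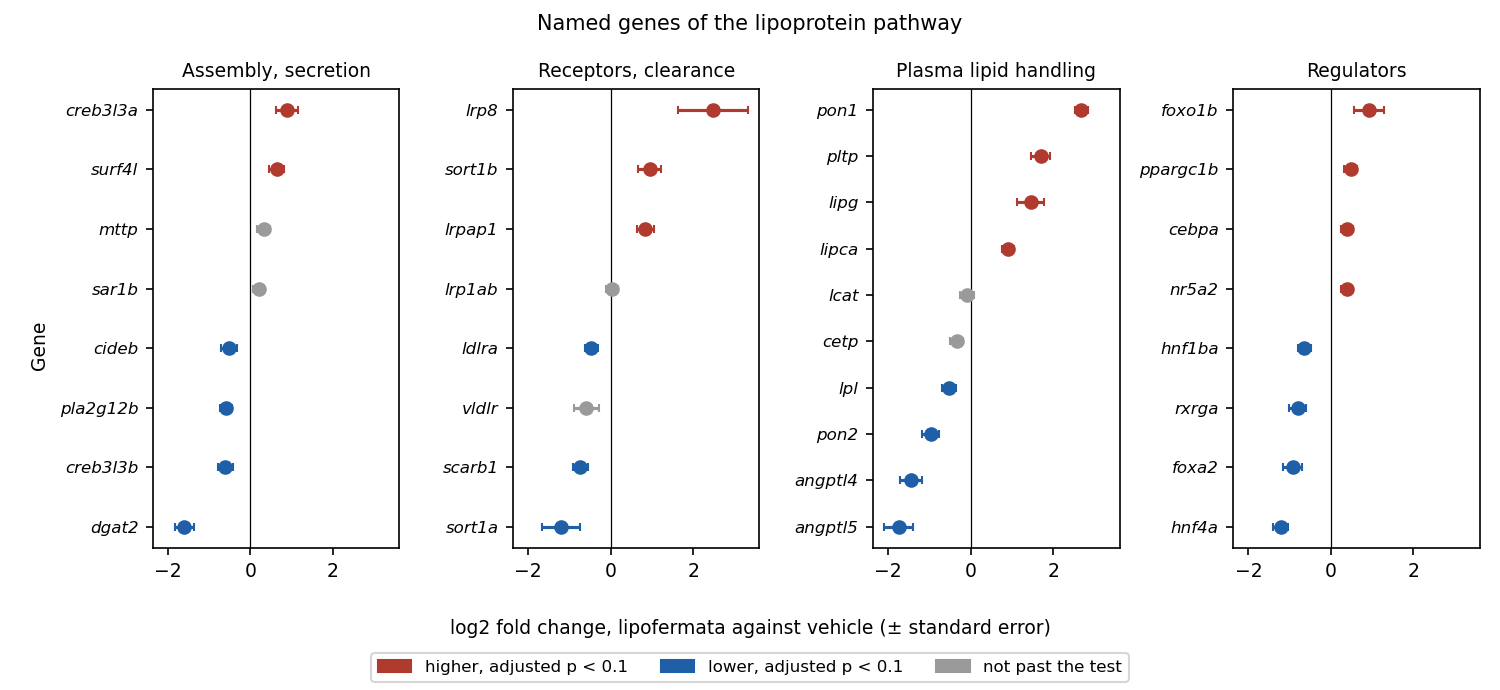
log2 fold change (± standard error) of the named genes of lipoprotein assembly, receptors, plasma remodelling and gene regulation, lipofermata against vehicle, coloured by direction where the adjusted p was under 0.1. pon1 (2.68), lrp8 (2.49) and pltp (1.70) are farthest to the right, and angptl5 (-1.75), dgat2 (-1.60) and angptl4 (-1.45) farthest to the left. lrp8 had 2 and 2 counts with vehicle and 18 and 12 with lipofermata, and only the lipofermata counts were enough for the test.

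With TMM scaling, hepatocyte markers moved in the same direction as the lower apolipoproteins. Total counts only moved the median of all genes up by 0.39, and scaling to the summed hepatocyte markers moved it up by 0.42. The summed markers thus took a similar part of the total counts in both groups. The markers were not tested as a set under either scaling. The numbers of lower and higher hepatocyte markers that follow are therefore relative to TMM, and a loss of hepatocyte RNA cannot be read from them. Of 22 tested, 10 were lower (16.9% of all genes tested), 0 higher and 12 did not pass, with a median log2 fold change of -0.36, and the EGFP row was lower by 0.90 on the log2 scale (edgeR adjusted p = 0.0099). The EGFP call was lost without lipofermata 2 and also with libraries scaled to the summed hepatocyte markers. The cells that carried EGFP in these larvae are not stated. When libraries were scaled to the summed hepatocyte markers instead, a scaling chosen after the values were seen, apobb.1, apoa4b.1, apoa1b and apoa2 stayed lower than vehicle at an adjusted p under 0.1 with smaller log2 fold changes (-0.71, -0.42, -0.29 and -0.28), apoeb stayed higher (2.46), and apoa1a, apoc1 and apoc2 were higher (0.37, 0.49 and 0.62). Among markers of other cells more calls were lower than higher, and their counts stand beside 16.9% lower and 16.6% higher among all genes tested. Of 7 muscle markers tested, 3 were lower and 0 higher, with sums of 20.2 and 7.99 CPM with vehicle and 3.94 and 5.09 CPM with lipofermata. Of 8 erythroid markers tested, 0 were lower and 1 higher. Of 20 endothelial markers tested, 18 were lower, with sums of 1048 and 925 CPM with vehicle and 291 and 274 CPM with lipofermata. Of 11 epidermal markers, 5 were lower and 2 higher, and their sum went from 622 and 763 CPM to 286 and 298 CPM, with krt4 falling from 296 and 355 CPM to 70.6 and 97.1 CPM and epcam rising from 65.7 and 39.6 CPM to 124 and 119 CPM. The 18 exocrine pancreas markers had a median log2 fold change of 0.15, and the nervous and retinal sum was 169 and 154 CPM with vehicle and 166 and 198 CPM with lipofermata. Most of this sum was glula (162 and 146 CPM with vehicle, 163 and 195 CPM with lipofermata). The sum therefore says little about nervous or retinal cells. Of 6 nervous and retinal markers tested, 2 were lower and 1 higher, at a median of -0.66 on the log2 scale. The epidermal, intestinal, macrophage and nervous markers named were chosen after their values were seen. The part of these cells in the apolipoprotein results was not tested.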

How the data were processed

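RNA-seq of 6 dpf fasting zebrafish livers was analysed from 4 libraries (polyA RNA, a stranded kit). The deposited values are raw read counts per gene, which the authors made with HISAT2 on GRCz11 and featureCounts, with no normalization; tool versions, annotation release, strand setting and treatment of multi-matching reads are each not given in the sources used here. All columns were used.

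The whole table was fitted in R 4.3.3 with edgeR 4.0.16. filterByExpr (minimum count 10) left 14925 genes, TMM gave the scaling, and treatment was the only term of the quasi-likelihood F test, with Benjamini-Hochberg adjustment over all genes and a threshold of 0.1, as in the study's methods. The SE is the log2 fold change divided by the square root of F. Levels are CPM scaled by TMM, given as mean ± SD over 2 libraries. Depth was 14997821 to 19368695 counts, and replicates spread more than counting error (chi-square per degree of freedom 23.7 for vehicle and 13.8 for lipofermata). Alternatives changed the scaling, the filter, the tool (DESeq2 1.42.0, voom in limma 3.58.1), the replicate block or the libraries. The script was tested on simulated counts.

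Named genes were the members, the other apolipoproteins found, in each list up to 4 called genes per direction with the smallest p plus 17 fixed genes, the gene nearest each member in profile (log2 CPM, prior count 2) and EGFP. Members and lists were chosen with earlier results of these data known. Of 276 list names, 267 were found, 6 of them through a reference table of names. The identifier ENSDARG00000094929 is called apoa4b.3 here, after that table, while the file gives it the name apoa4b.2. The values of 1 gene that the rule names are not reported here. Sequences and levels per transcript length were not analysed here.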

Additional observations from a re-analysis of the deposited data

How the results depend on the processing

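With 2 libraries per group the error of each value is known poorly. Against 2479 genes higher and 2527 lower (49.5% of calls higher), total counts only gave 5095 and 1182 (81.2%), total counts without mitochondrial transcripts 4301 and 1276 (77.1%), and scaling to the summed hepatocyte markers, chosen after seeing the data, 5163 and 1087 (82.6%). The median of all genes moved up by 0.39, 0.32 and 0.42 on the log2 scale, and 4, 3 and 4 members were higher in place of 1. apoa1a, ndufv1 and cyp24a1 then turned to called increases with total counts only (0.34, 0.39 and 0.28) and with hepatocyte scaling (0.37, 0.42 and 0.31), as did lcat with hepatocyte scaling (0.33). DESeq2 called 1897 genes higher and 1974 lower. Leaving out 1 library each gave 1128 to 3115 genes higher, 1284 to 2898 lower and 2 to 5 members lower, the fewest without a lipofermata library; the lone library left was assumed to vary like the other group. In these fits apobb.2 ranged from -0.71 to 0.73 and apoda.2 from -1.02 to 0.40. Deviations from the group mean had a correlation of 0.033 between libraries of equal replicate number. With 2 libraries per group this cannot show whether such libraries shared a clutch or day. The fit with the replicate block gave 2763 genes higher and 2724 lower, 1 member higher and 5 lower (apoba -0.34). Over 135 fits of single members, 121 stayed on their side of the threshold (5 of these, uncalled, changed sign), 4 lost the call, each without a lipofermata library, 8 gained it and 2 turned to a call of the other sign; over 840 fits of 56 other genes the numbers were 715 (30), 83, 35 and 7. The summed share and the ratios of copies kept their direction in every leave-one-out value. Levels per length and the matching alternative were not run. The cause of these shifts was not tested.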
